A study of Mus musculus with 2 samples.

Results

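The miR-101 family was described here by its genes Mir101a and Mir101b, 2 of the 1973 miRNA genes counted. Both were chosen by name, as known repressors of Ezh2, and their values are reads on the gene's own strand (sense counts). The samples were 2 libraries of liver from B6NCrl mouse embryos at embryonic day 15.5, both sexes together. Replicate 1 came from a pool of 78 embryos and replicate 2 from a pool of 62. The series has 1 group, with no treatment or genotype contrast, so no condition could be compared. Each value averages the embryos of a pool, so the SD given below reflects pools and technical variation, not single animals. In bulk tissue, fewer cells of a type and less of a miRNA per cell cannot be told apart.

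miRNAs are short RNAs cut from a hairpin precursor and loaded into an Argonaute protein. Bases 2 to 8 of the mature strand, the seed, pair with sites in the 3′ untranslated region (UTR) of messenger RNAs and lower their translation and stability. miR-101 is known for repressing Ezh2, the histone methyltransferase of Polycomb repressive complex PRC2, which places the silencing mark H3K27me3. In liver it is best known from hepatocellular carcinoma, where its loss is common and goes with high EZH2.

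The mature sequences are shown first because the loci differ by few bases, and those bases decide the locus to which a read can be assigned. The seed depends also on where the annotated mature strand starts. They are from RefSeq (GRCm38.p6), 5′ to 3′, with the seed in capitals. miR-144-3p, the miRNA of a red cell gene, is added because it shares part of the seed.
miR-101a-3p: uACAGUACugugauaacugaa
miR-101b-3p: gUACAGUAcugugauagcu
miR-101c: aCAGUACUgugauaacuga
miR-144-3p: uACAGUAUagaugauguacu
miR-101a-5p: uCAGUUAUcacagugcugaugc
miR-101b-5p: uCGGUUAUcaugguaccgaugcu

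The annotated miR-101b-3p starts 1 base further 5′ than miR-101a-3p, so its seed is UACAGUA in place of ACAGUAC. The Mir101a hairpin has the same base, g, at that place, so these seeds differ by the annotated start alone. The counts do not show where reads start. With that base left aside, the sequences differed over the 18 bases they share by a single substitution, A16G, counted from 1 at the 5′ end of miR-101a-3p. The same comparison over all 21 bases of miR-101a-3p with the Mir101b hairpin found that substitution alone. The opposite arms, miR-101a-5p and miR-101b-5p, differed over 22 bases by A3G, C11U, A12G, G15A and U17C, counted from 1 at the 5′ end of miR-101a-5p. A3G lies in the seed. Among 1738 mature sequences in the RefSeq table, no other had the same bases 2 to 8 as miR-101a-3p or miR-101b-3p. miR-144-3p shared bases 2 to 7 (ACAGUA) with miR-101a-3p, and miR-582-5p shared bases 2 to 7 (UACAGU) with miR-101b-3p.

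The hairpins that the counts refer to are shown with both mature arms in capitals, since the tables count a whole precursor gene and do not separate its arms.
Mir101a hairpin: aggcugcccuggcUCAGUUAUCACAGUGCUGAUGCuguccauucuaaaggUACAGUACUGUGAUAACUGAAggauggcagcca
Mir101b hairpin: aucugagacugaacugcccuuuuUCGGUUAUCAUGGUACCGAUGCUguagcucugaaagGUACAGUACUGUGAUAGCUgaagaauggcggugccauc

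Mir101a (ENSMUSG00000065451.1) lies at chr4:101346945-101347027 on the minus strand, 83 bases, in exon 2 of 2 of the long noncoding RNA E130102H24Rik. Mir101b (ENSMUSG00000065556.1) lies at chr19:29135279-29135375 on the plus strand, 97 bases, in intron 8 of Rcl1, which encodes a protein of ribosomal RNA processing. In a global alignment 69 bases of the hairpins were identical. Neither gene is part of a miRNA cluster, with 0 other annotated miRNA genes within 10 kb of either. The nearest lies 1689115 bases from Mir101a and 1126066 bases from Mir101b. Coordinates and hosts are those of GENCODE release M21 on GRCm38, the assembly (mm10) used for counting.

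Mir101b was the abundant member and Mir101a the minor one, in both pools. Mir101b had 37992 sense counts in replicate 1 and 19947 in replicate 2. Divided by the sense miRNA counts of the library and multiplied by 1000000 (CPM), these were 6871 (exact Clopper-Pearson 95% interval 6803 to 6940) and 6293 (6206 to 6380). The mean was 6582 ± 409 CPM (SD, n = 2), or 0.658% ± 0.0409 of sense miRNA counts. Mir101b ranked 36 in replicate 1 and 37 in replicate 2 among all counted genes.

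Mir101a had 524 sense counts in replicate 1 and 326 in replicate 2. Its level was 94.8 CPM (exact 95% interval 86.8 to 103) and 103 CPM (92.0 to 115), with a mean of 98.8 ± 5.71 CPM (SD, n = 2). It ranked 190 and 189, near the middle of the 352 genes with at least 10 counts in both libraries, above 46.0% of them in replicate 1 and 46.3% in replicate 2. The intervals of Mir101a in the 2 libraries overlapped, and those of Mir101b did not. The intervals cover counting error only.

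**Figure D1:**
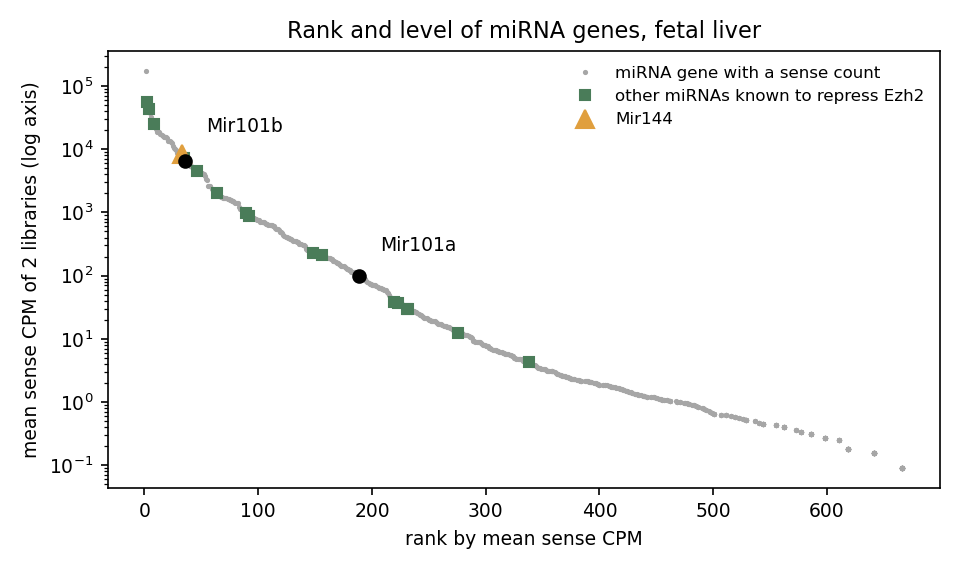
Mean sense CPM of 2 libraries (log axis) against rank for every miRNA gene with a sense count. Black points mark Mir101b (6582 CPM, rank 36) and Mir101a (98.8 CPM, rank 189), green squares the other miRNAs known to repress Ezh2, and the triangle Mir144, just above Mir101b.

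Mir101b outnumbered Mir101a by a wide margin, far beyond counting error. Replicate 1 gave a ratio of their counts of 72.5 (exact 95% interval 66.5 to 79.2). Replicate 2 gave 61.2 (54.8 to 68.5), and the mean was 66.8 ± 8.0 (SD, n = 2). Mir101a made 1.36% of the family's 38516 counts in replicate 1 and 1.61% of 20273 in replicate 2. Together the genes held 0.697% of sense miRNA counts in replicate 1 and 0.640% in replicate 2. The balance of the loci differed between the pools by Fisher's exact test, two-sided, p = 0.0181, a 1.18-fold difference in the ratio. That test covers counting error and compares these libraries, not conditions.

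The gene counts hold no read with several mapping places, and such reads were 29.3% and 31.1% of all reads in replicates 1 and 2. One more annotated locus of the family, Mir101c at chr9:3038669-3038743, minus strand, lies in no annotated host gene and was not analysed here. Its GENCODE M21 identifier is not among the counted genes, so no count of it can be given. Its hairpin holds a run of 19 of the 21 bases of miR-101a-3p without a difference, and that run is the whole annotated miR-101c. The longest run that miR-101b-3p shares with the Mir101c hairpin is 14 of its 19 bases. With Mir101a it shares 16 of 19, and miR-101a-3p shares 15 of 21 with Mir101b. Over all GENCODE M21 transcripts, the whole miR-101a-3p was found in Mir101a and its host E130102H24Rik alone, and the whole miR-101b-3p in Mir101b alone. Runs of at least 19 bases in another hairpin were present for 52 of the 317 genes with 10 counts in both libraries and a sequence in the RefSeq table (16.4%). Whether reads of Mir101a were set aside because of Mir101c was not tested, so the level of Mir101a and the ratio are uncertain.

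No read of either gene lay on the opposite strand. The count there was 0 in both libraries for both genes, which allows up to 3 counts. For Mir101a that is a share of up to 0.573% of its reads in replicate 1 and 0.920% in replicate 2, and for Mir101b up to 0.00790% and 0.0150%.

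An unequal balance of lettered family members was common in these libraries. In 30 miRNA families, let-7 among them, at least 2 members that differ by a letter (such as a and b) had 10 counts or more in both libraries. The mean ratio of the highest letter to the second ranged from 1.00 to 1071, with a median of 3.30. The miR-101 family ranked 3 at 66.8, after miR-26 (1071) and miR-20 (110.4) and before miR-196 (43.9). Its ratio is uncertain, since the Mir101c hairpin holds 19 of the 21 bases of miR-101a-3p. Whether reads of Mir101a were set aside for that was not tested. The miR-26 value is uncertain, since Mir26a-1 and Mir26a-2 share a mature sequence, and a read that fits both loci was not counted. Among the let-7 loci, Mirlet7a-1, Mirlet7c-1, Mirlet7c-2 and Mirlet7f-2 share a mature sequence with another gene, so the let-7 ratio is uncertain too. Such sharing was not checked in the remaining families with numbered loci, such as miR-196, miR-199, miR-125 and miR-19, so their ratios are also uncertain. Loci without a letter were left out. The miR-7 family is thus ranked on Mir7j (37.8 CPM) and Mir7b, although Mir7-1 had 205 CPM. Between the libraries the log2 of this ratio moved by 0.24 in the miR-101 family, with a median of 0.12 over the families and a larger move in 6 of them. This ordering was made after the ratio of miR-101 was known, and it is a description with no test.

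**Figure D2:**
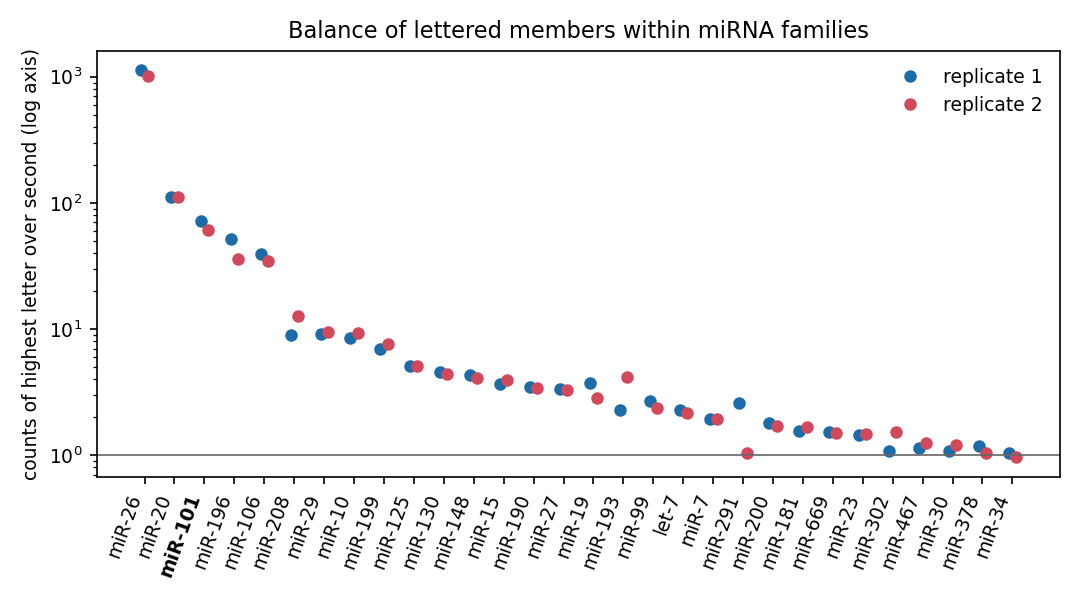
Ratio of the counts of the highest lettered member to the second (log axis) in each of 30 miRNA families, ordered by its mean, with a point for each library and a line at equal counts. The miR-101 points lie at 72.5 and 61.2, at rank 3, where the median over families is 3.30.

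Among all genes, those nearest in mean level to Mir101a were Mir363 (112 ± 7.21 CPM), Mir155 (103 ± 10.1) and Mir33 (99.7 ± 16.9) above it, and Mir132 (92.2 ± 9.50), Mir29c (91.5 ± 0.937) and Mir666 (91.3 ± 2.86) below it (SD, n = 2 for each). Mir155 is a miRNA of activated leukocytes and Mir33 a regulator of cholesterol export. The ranges over the libraries of Mir155, Mir33 and Mir132 overlapped that of Mir101a, so their order is not settled. Those of Mir363, Mir29c and Mir666 did not overlap it.

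Above Mir101b stood Mir144 at 8347 ± 807 CPM, Mir106b at 7789 ± 319 and Mirlet7d at 7180 ± 42.7. Below it stood Mir99b at 6253 ± 152 CPM, Mir139 at 5938 ± 259 and Mir744 at 5628 ± 471 (SD, n = 2 for each). Mir99b alone overlapped the range of Mir101b. With 2 libraries, likeness in level over these samples is the only pattern that could be compared.

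**Figure D3:**
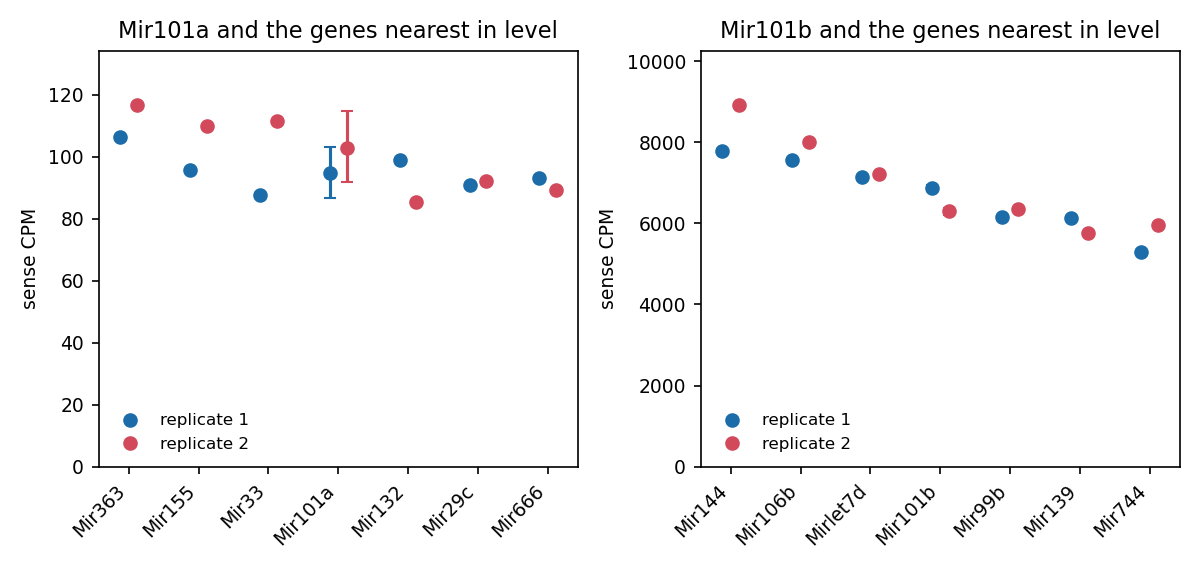
Sense CPM in each library for Mir101a (left) and Mir101b (right) and the 3 genes on either side by mean level. Points are libraries, and bars at Mir101a and Mir101b are exact 95% intervals, smaller than the points at Mir101b. Mir155, Mir33 and Mir132 overlap the range of Mir101a (94.8 to 103 CPM), and Mir99b that of Mir101b (6293 to 6871 CPM).

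The genes that share a seed hexamer with the family stood far apart in level. Mir144 had 7777 and 8918 CPM in replicates 1 and 2, and Mir582 had 11.2 and 10.7 CPM. Mir144 counts were 1.13 times those of Mir101b in replicate 1 and 1.42 times in replicate 2. Of the counts of Mir101a and Mir144 together, Mir101a made 1.20% in replicate 1 and 1.14% in replicate 2. Mir101a, Mir101b and Mir144 together held 1.47% and 1.53% of sense miRNA counts. These are sums over both arms of each precursor, so they are not levels of the seed-bearing strands.

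Between the libraries, Mir101b was lower in replicate 2 and Mir101a showed no detectable difference. The log2 ratio of replicate 2 over replicate 1 was -0.16 for Mir101b (95% counting interval -0.19 to -0.14), a level 1.12-fold lower (exact binomial test on library sizes scaled by TMM, Benjamini-Hochberg adjusted p = 2.38e-37). Over the 187 genes whose mean reached 100 CPM, the SD of the log2 ratio was 0.203, larger than the ratio of Mir101b. The log2 ratio was 0.08 for Mir101a (interval -0.12 to 0.28, exact binomial test, adjusted p = 0.595). At this depth that test called 178 of 456 genes, or 39.0% of those tested, with 18.2% higher and 20.8% lower in replicate 2, so such calls were frequent. Among the 31 detected genes within 2-fold of the level of Mir101b, 26 were called (83.9%) and 4 had a larger absolute log2 ratio. Among the 54 within 2-fold of Mir101a, 16 were called and 40 had a larger absolute log2 ratio. With the spread between the libraries included, as a common biological coefficient of variation of 12.9%, the difference in Mir101b was not called (edgeR exact test, adjusted p = 1). That spread was estimated from the same 2 libraries.

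**Figure D4:**
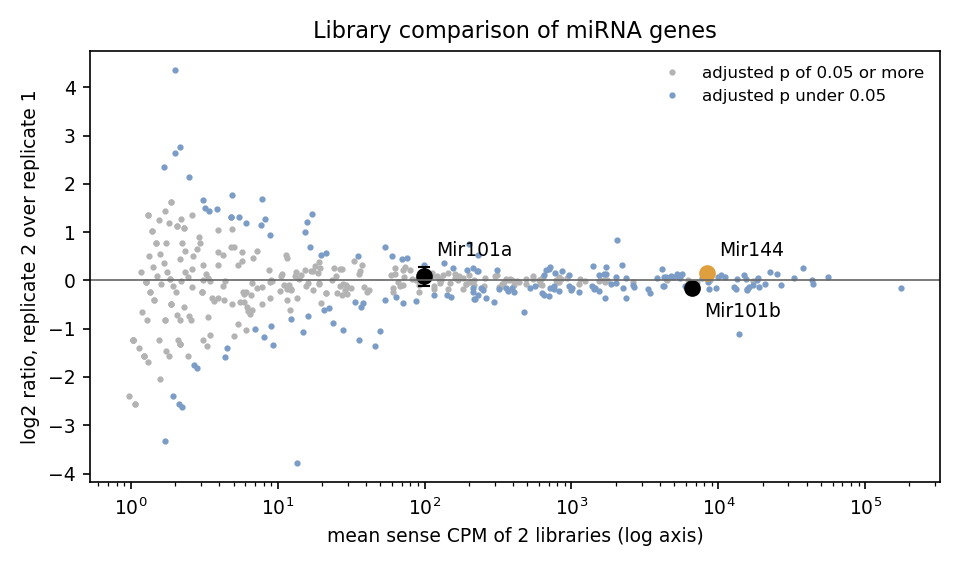
Log2 ratio of replicate 2 over replicate 1 against mean sense CPM (log axis) for the 456 genes tested, except 2 with 0 counts in a library. Bars at the black points of Mir101a (0.08) and Mir101b (-0.16) are 95% counting intervals, the one at Mir101b smaller than its point, and Mir144 (0.16) lies on the other side of 0 from Mir101b at a similar level.

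Mir144, which lies close to Mir101b in level, was called higher in replicate 2 at 0.16 on the log2 scale (exact binomial test, adjusted p = 1.44e-46). Hepatocyte markers (Mir122, Mir802, Mir192, Mir194-1, Mir194-2 and Mir148a) were called lower in replicate 2 in 6 of 6 cases, with a median log2 ratio of -0.17, next to -0.16 for Mir101b and -0.04 over all genes tested. The leukocyte markers Mir223, Mir146 and Mir342 were also called lower in 3 of 3 cases, with a median of -0.17, and the endothelial Mir126a at -0.08. Mir142, the other of the 4 leukocyte markers listed, was not found by that name among the counted genes. With total sense counts in place of TMM, 2 of the 3 leukocyte markers were called lower. Over all genes tested 18.2% were called higher and 20.8% lower in replicate 2. Of the 31 detected genes within 2-fold of the level of Mir101b, 83.9% were called, so calls were frequent at such levels. The direction of Mir101b was shared by markers of several cell types, but not by all. Of the 3 muscle markers, Mir206 was called higher (0.84), Mir208b was called lower (-0.48) and Mir499 was not called (-0.17). Of the 3 neural markers tested, 1 was called lower (Mir137, -1.04) and 0 higher. The edgeR exact test called 8 of all 456 genes tested. Of the 6 hepatocyte markers it called 1, Mir802, with 140 and 6 counts in replicates 1 and 2. It called 0 of the 3 leukocyte markers, of which 0 had an unadjusted p under 0.05. The hepatocyte markers summed to 18.9% of counts in replicate 1 and 17.5% in replicate 2, and the leukocyte markers to 2.10% and 1.96%. Of the erythroid markers, Mir144 and Mir486 were called higher and Mir451a lower, and the 3 summed to 2.71% and 1.86%. The part of these markers in the ratio of Mir101b was not tested.

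Markers of liver cells were present in the labelled tissue, taking at least 10 counts in both libraries as present. These were 5 of 6 hepatocyte markers, all 3 erythroid markers, the 3 leukocyte markers counted and the endothelial Mir126a. Over all 1973 genes, 352 passed that rule. So did 2 of the 4 neural markers counted and all 3 muscle markers, so presence by this rule did not set liver markers apart. Neural markers held 0.0191% and 0.0162% of counts and muscle markers 0.170% and 0.286%. Of the 4 neural markers counted, 3 share a mature sequence with another gene, as do 2 of the 6 hepatocyte markers. Reads that fit several places were not counted, so these shares can be too low. Sense miRNA counts summed to 5529166 in replicate 1 and 3169882 in replicate 2.

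Other miRNAs known to repress Ezh2 bracketed the miR-101 genes in level. Of 21 such genes listed (the miR-26 genes, let-7 with Mir98, the miR-138 and miR-124 genes, and Mir214), 19 were in the tables and 16 had at least 10 counts in both libraries. The highest were Mirlet7g at 55446 ± 3032 CPM, Mir26b at 43398 ± 1028 and Mirlet7i at 24990 ± 2199 (SD, n = 2 for each). Each exceeded Mir101b in both libraries. Mir98, at 4466 ± 101 CPM, and Mir214, at 866 ± 95.8 CPM, stood below Mir101b and above Mir101a in both. The 3 miR-124 genes, known from neurons, had 0 sense counts in both libraries. Reads with several mapping places were not counted, and sharing of a mature sequence among these 3 was not settled here. Their 0 counts therefore do not show absence. The median level was 549 CPM over the 16 list members tested, against 32.3 CPM over all genes tested, and 212 CPM over the 19 in the tables.

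In the library comparison 4 of the 16 tested list members were called higher and 5 lower in replicate 2, beside 18.2% higher and 20.8% lower over all genes tested. Their median log2 ratio was -0.08, beside -0.04 over all genes. Scaled by total sense counts, 5 were higher and 4 lower. The edgeR exact test called 0 of 16, and 0 had an unadjusted p under 0.05, against 9 called by the binomial test. At least 8 of the 19 share a mature sequence with another gene, so their counts can be too low.

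**Figure D5:**
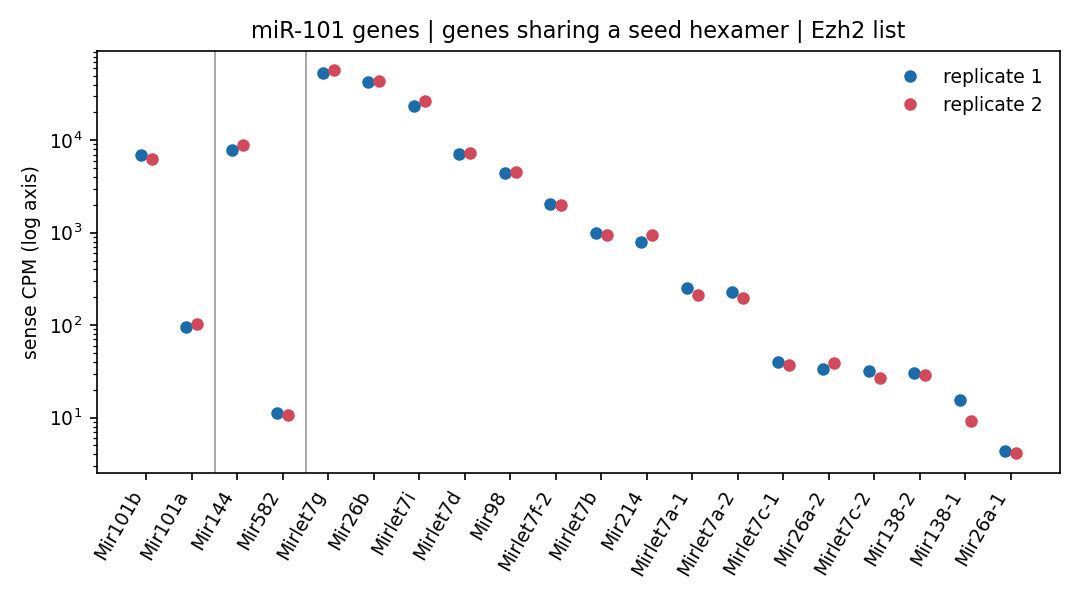
Sense CPM (log axis) in each library for the miR-101 genes, the genes that share bases 2 to 7 with a mature miR-101 3p strand, and the other miRNAs known to repress Ezh2 with a sense count. Points are libraries. Mir101b (6871 and 6293 CPM) lies beside Mir144 and Mirlet7d, and Mir101a (94.8 and 103 CPM) lies below Mirlet7a-2 and above Mirlet7c-1.

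The series holds no messenger RNA data, so target sites are given from sequence alone. The reverse complement of bases 2 to 8 is GTACTGT for miR-101a-3p and TACTGTA for miR-101b-3p, searched on the transcript strand of the longest annotated 3′ UTR of each gene. TACTGTA is also the match to bases 2 to 7 of miR-101a-3p followed by A, so the stretch GTACTGTA holds both motifs. Of 21022 UTRs, 9.38% held GTACTGT, 12.2% TACTGTA and 17.3% either. Of 15 genes listed as PRC2 subunits or known miR-101 targets, 11 held either motif, at 16 places. The known targets were listed because sites are known in them, so this count is no independent evidence.

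The Ezh2 UTR (402 bases) held 2 matches for miR-101a-3p, of which 1 also matched miR-101b-3p. Among 1796 UTRs within 20% of that length, 4.79% held either motif. Both are shown with 28 bases of the transcript strand and the matched bases in capitals (GENCODE M21 transcript, GRCm38, minus strand).
Ezh2 site at UTR base 59, chr6:47530471-47530498: gcttcaggaaccttgaGTACTGTgggca
Ezh2 site at UTR base 114, chr6:47530416-47530443: attctgaatttgcaaaGTACTGTAacag

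Among the other PRC2 genes, the UTR of Eed, the subunit that binds H3K27me3, held 1 match for miR-101a-3p. That of Rbbp7, a histone-binding subunit, held 1 place with both motifs. Suz12, Rbbp4 and Jarid2 had 0 matches in these UTRs, where 23.6%, 34.3% and 19.8% of UTRs of like length held either motif. Outside PRC2, Mycn, a growth-linked transcription factor, had 3 places, where 13.2% of UTRs of like length held either motif. Dnmt3a, a DNA methyltransferase, had 3 in a UTR of 6696 bases, a length at which 58.2% of UTRs held either motif. Ptgs2, Fos, Dusp1 and Rab5a had 1 place each with both motifs. At like length 31.2%, 12.6%, 11.7% and 16.3% of UTRs, in that order, held either motif. Mcl1 and Stmn1 had 1 place each with TACTGTA and without GTACTGT, and Atg4d had 0. Those places match bases 2 to 8 of miR-101b-3p, and also bases 2 to 7 of miR-101a-3p followed by A. At like length either motif was held by 29.6% of UTRs for Mcl1, 5.43% for Stmn1 and 43.6% for Atg4d. A match is a description of sequence, and nothing here measured its use in fetal liver.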

How the data were processed

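microRNA sequencing of RNA under 30 nucleotides was done on 2 pooled fetal liver libraries. The deposited tables give whole-number read counts per miRNA gene (both strands, sense, opposite strand), with no normalization; assembly mm10 and annotation M4 are per the text deposited beside the tables. For the aligner and counter, nothing is stated (not given in the sources used here). Of 1973 identifiers, 1894 matched GENCODE M21 by stable ID. Unassigned reads (unmapped 23.9% and 21.4%, no annotated gene 5.40% and 6.23%) entered no library size.

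From the counts, CPM over sense miRNA counts, exact Clopper-Pearson 95% intervals and a gene-by-gene exact binomial test between libraries were computed. That test used genes with at least 10 summed counts, TMM sizes and Benjamini-Hochberg adjustment over all 456, at 0.05. TMM and dispersion came from edgeR 4.0.16, alternative size factors from DESeq2 1.42.0, in R 4.3.3, on genes with 10 counts in both libraries. The binomial test was tried on simulated counts with counting error alone. These held no spread between libraries, so the trial does not show how that test performs where such spread is present, as here. Named genes were the family, genes sharing its seed, the 3 nearest in level on each side, and the 3 highest of the Ezh2 list; other names are list members or were chosen after values were seen. Members and lists were chosen with earlier results of these data known. Reads carry no molecular identifiers, so PCR copies are counted as if independent and intervals cover counting error only.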

Additional observations from a re-analysis of the deposited data

How the results depend on the processing

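No paired analysis was possible because the series has 1 group. Levels depend on the library size chosen. With counts of both strands, Mir101a came to 90.0 CPM and Mir101b to 5994. Over all reads in the tables, they came to 37.1 and 2475, and without Mir122 in the library size to 119.8 and 7987. These settings change the denominator by construction. With TMM sizes or DESeq2 size factors, both levels stayed within 1 SD. With each library left out in turn, the level ranged from 94.8 to 103 CPM for Mir101a and from 6293 to 6871 CPM for Mir101b, and the ratio from 61.2 to 72.5. The ratio did not change with counts of both strands.

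The log2 ratio of Mir101b ranged from -0.16 to -0.13 over 6 alternatives and was called in the 5 that kept the binomial test (adjusted p 1.67e-37 to 7.30e-23). With the edgeR exact test it was -0.16 and not called (adjusted p = 1). That of Mir101a ranged from 0.08 to 0.12 and was called in none (adjusted p 0.398 to 1). The edgeR test called 8 genes in place of 178, with 47 at an unadjusted p under 0.05, 0 in place of 9 of the Ezh2 list, 1 in place of 6 hepatocyte markers and 0 in place of 3 leukocyte markers; it adds the spread between libraries to counting error. The other alternatives called 160 to 186 genes. With 326 counts in replicate 2, the interval of the log2 ratio of Mir101a, -0.12 to 0.28, limits what could be detected.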
